A study of Mus musculus with 5 samples.

Results

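The genes described here make, bind, break down or respond to retinoic acid in the embryonic mouse pituitary. All 9 members, Aldh1a1, Aldh1a2, Aldh1a3, Crabp1, Crabp2, Cyp26a1, Cyp26b1, Dhrs3 and Rarb, were found by name among 20097 gene symbols, with 1 region per symbol. The rule takes the genes by name and uses no measured value, though it was written with earlier results of these data known. RNA was measured at e12.5 in pituitaries of 5 littermate embryos of the mixed strain B6;129. The 3 control libraries (9, 10 and 12) had the genotype Itgb1 f/f, in which the integrin beta 1 gene carries sites for Cre recombinase. The 2 other libraries, labelled knockouts 13 and 16, had the genotype Itgb1 f/f; Pitx1-cre, in which the Pitx1 promoter drives Cre, so only cells that have used that promoter can lose Itgb1. All 5 libraries therefore carry the floxed alleles, and tissue next to the gland that never used Pitx1 would keep the gene.

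Retinoic acid is a small signalling molecule made from vitamin A. Retinol is first oxidised to retinaldehyde, which the Aldh1a enzymes turn into retinoic acid, while Dhrs3 reduces retinaldehyde back to retinol and so limits the supply. The acid is carried in the cytoplasm by the binding proteins Crabp1 and Crabp2, is broken down by the Cyp26 enzymes, and acts through nuclear receptors such as Rarb that sit on response elements in DNA. In the developing pituitary, enzymes of this pathway are known from Rathke's pouch and from the tissues around it.

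The level of a gene below is its number of tags for every 10000000 tags of that library, counted over the whole gene region with introns. Tags over listed genes numbered between 4480809 and 6143263 per library. Library 16 stood apart. Its background, taken from olfactory and vomeronasal receptor genes that most tissues do not use, was 1.496 tags per kilobase. That background was 0.157 to 0.392 in the controls and 0.472 in library 13. The ribosomal precursor Rn45s took 8.88% of the tags of library 16, 14.2% of those of library 13 and 16.8% to 23.5% of those of controls. Each member's level is therefore also given with the library's background per kilobase subtracted, in places together with TMM factors, which scale libraries on the bulk of genes. Itgb1 was at 272.73, 426.36 and 430.91 in controls 9, 10 and 12, 446.36 in library 13 and 186.36 in library 16. On this scale library 13 was above every control for Itgb1, as for most genes. With background subtracted and TMM factors Itgb1 was at 404, 374 and 451 for the controls, 281 for library 13 and 115 for library 16, so that both KO-labelled libraries lay below every control, as they also did with TMM factors alone. All 13 markers listed for Rathke's pouch epithelium, among them Lhx3, Hesx1 and Pitx1, had tags in every library. Of the 10 markers for the infundibulum and hypothalamus, the neural tissue that adjoins the pouch, none was at 0 in any library, and their sum above background was 477 to 784 in the controls, 443 for library 13 and 133 for library 16.

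Response elements mark some of these genes as direct targets of the acid, and 2 promoters are shown because they hold the element in its best known form. That form is a direct repeat with a spacer of 5 bases (DR5). It was searched on both strands as 2 hexamers in the same direction, each of them AGGTCA or a variant, which could be AGTTCA or else GGGTCA or lastly GGTTCA. RefSeq windows of 300 bases around the start site (GRCm38.p6) matched 7 of the 9 members (not Aldh1a3 and Crabp2), with 10 windows. A DR5 was present in Rarb and Cyp26a1, and in 0.097% of all 32851 windows (32 windows). Repeats with spacers of 1 or 2 bases, found in 0.222% and 0.268% of windows, were in none of the members' windows. The 150 bases before each start site are given 5′ to 3′ on the gene's strand, with the repeat and its spacer in capitals. The Rarb stretch is chr14:16575477-16575626 on the minus strand, and the Cyp26a1 stretch is chr19:37697658-37697807 on the plus strand.
Rarb: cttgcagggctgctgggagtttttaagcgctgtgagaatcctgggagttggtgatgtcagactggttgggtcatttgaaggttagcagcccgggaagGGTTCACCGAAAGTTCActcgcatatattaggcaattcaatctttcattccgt
Cyp26a1: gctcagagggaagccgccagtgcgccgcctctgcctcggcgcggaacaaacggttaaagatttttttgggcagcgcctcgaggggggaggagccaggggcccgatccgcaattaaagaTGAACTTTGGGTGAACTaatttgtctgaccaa
The repeat lay 53 to 37 bases before the Rarb start and 32 to 16 bases before the Cyp26a1 start, where it reads on the opposite strand. Its hexamers were GGTTCA and AGTTCA in Rarb, and both were AGTTCA in Cyp26a1. The match is a description of these letters and says nothing of which factor was bound.

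In the controls the binding protein gene Crabp2 had the highest level per kilobase of region and Aldh1a1 the lowest. Crabp2 was at 18.1 ± 7.23 tags per kilobase (SD, n = 3) and Aldh1a1 at 0.268 ± 0.0592. Crabp2 ranked first and Aldh1a1 last of the 9 in each control library. Between them came Rarb (2.04 ± 0.690), Crabp1 (2.02 ± 1.33), Aldh1a2 (1.73 ± 0.623), Dhrs3 (1.19 ± 0.207), Cyp26b1 (0.894 ± 0.189), Cyp26a1 (0.829 ± 0.475) and Aldh1a3 (0.542 ± 0.307). The control ranges of Crabp2 and Rarb did not overlap, while every other pair of neighbours in this order overlapped. With background subtracted the order of the means was the same, and Aldh1a3 (0.273 ± 0.194) and Aldh1a1 (0.0297 ± 0.0515) no longer overlapped. Among all symbols, the mean per kilobase placed Crabp2 at percentile 98.1, Rarb at 72.4, Aldh1a2 at 67.7, Cyp26a1 at 45.7 and Aldh1a1 at 9.16. By the counting intervals given below, Cyp26a1 and Aldh1a1 were not detectable above background in any control. A region with a larger share of exons collects more tags per kilobase from mature RNA, so this order is not one of transcript number.

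**Figure D1:**
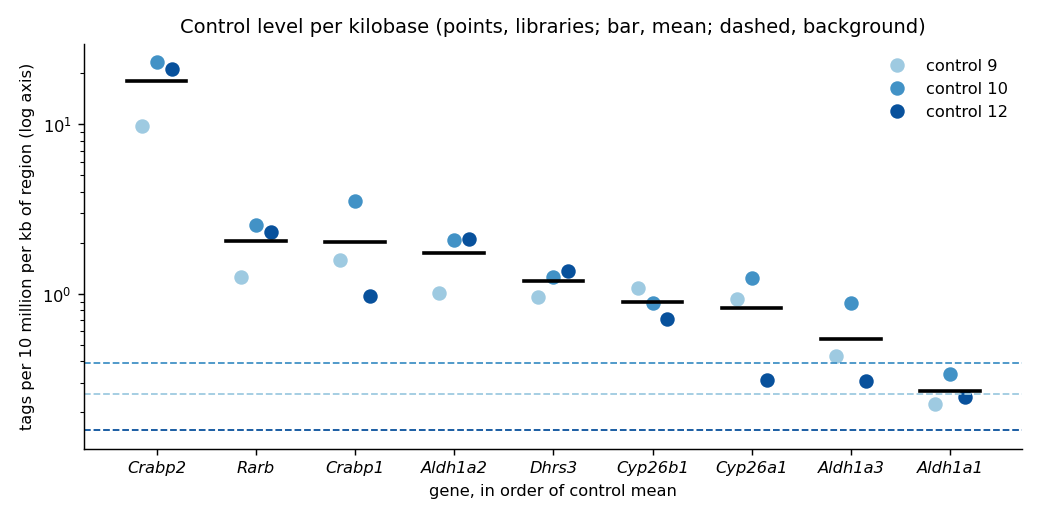
Level per kilobase of region (tags per 10000000 total tags and kb, log axis) of the 9 genes in the 3 control libraries. Points are libraries, black bars are means and dashed lines are each library's background. Crabp2 lies above all others, and Aldh1a1 lies at or near the background lines.

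Between the genotypes none of the 9 genes passed the limma test, and neither did any other gene. Of 19313 genes, 0 (0%) had an adjusted p under 0.05, while 5636 had an unadjusted p under 0.05. The edgeR quasi-likelihood test on recovered reads also called 0 (478 unadjusted), and DESeq2 called 25 lower genes, none of them a member, though Rarb was the only member to which it gave an adjusted p (0.719). The median gene was 0.97 higher in the KO-labelled libraries on the log2 scale, so changes are given relative to it, while the p-values test the change before that shift is taken off. On this scale 5 members lay above the median gene and 4 below, and with TMM factors 4 above and 5 below. Their median relative change was 0.02, where that of all tested genes is 0 by construction. Adjusted p ran from 0.0935 for Aldh1a3 to 0.795 for Crabp2. Unadjusted p was under 0.05 for Aldh1a1 and Aldh1a3, both higher, against 29.2% of all genes in that direction. Exact 2-sided permutation tests over the 10 ways to assign libraries to groups gave p from 0.1 to 0.8 with deposited values. The smallest p that 3 against 2 can give is 0.1. With background subtracted and TMM factors the lowest p of these permutation tests was 0.3. The libraries are separate biological replicates, per the labels.

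On the deposited scale 6 of the 9 lay above every control in both KO-labelled libraries, namely Aldh1a1, Aldh1a2, Aldh1a3, Cyp26a1, Dhrs3 and Rarb. Of all tested genes 50.2% did so, and 0.202% lay below every control in both, among them no member. Library 13 taken alone was above every control for 7 members (73.3% of all genes) and library 16 for 8 (72.9%). Library 13 was below every control only for Cyp26b1 (1.46% of all genes) and library 16 only for Crabp2 (7.86%). With background subtracted and TMM factors no member lay on one side of the controls in both libraries, against 8.67% of all genes above and 7.64% below. On that scale library 13 was above every control for Aldh1a2 and Cyp26a1 (23.5% of all genes) and below for Cyp26b1 and Dhrs3 (20.1%). Library 16 was above for Aldh1a1, Aldh1a3, Crabp1, Cyp26b1 and Dhrs3 (42.3%) and below for Aldh1a2, Crabp2 and Rarb (39.4%).

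**Figure D2:**
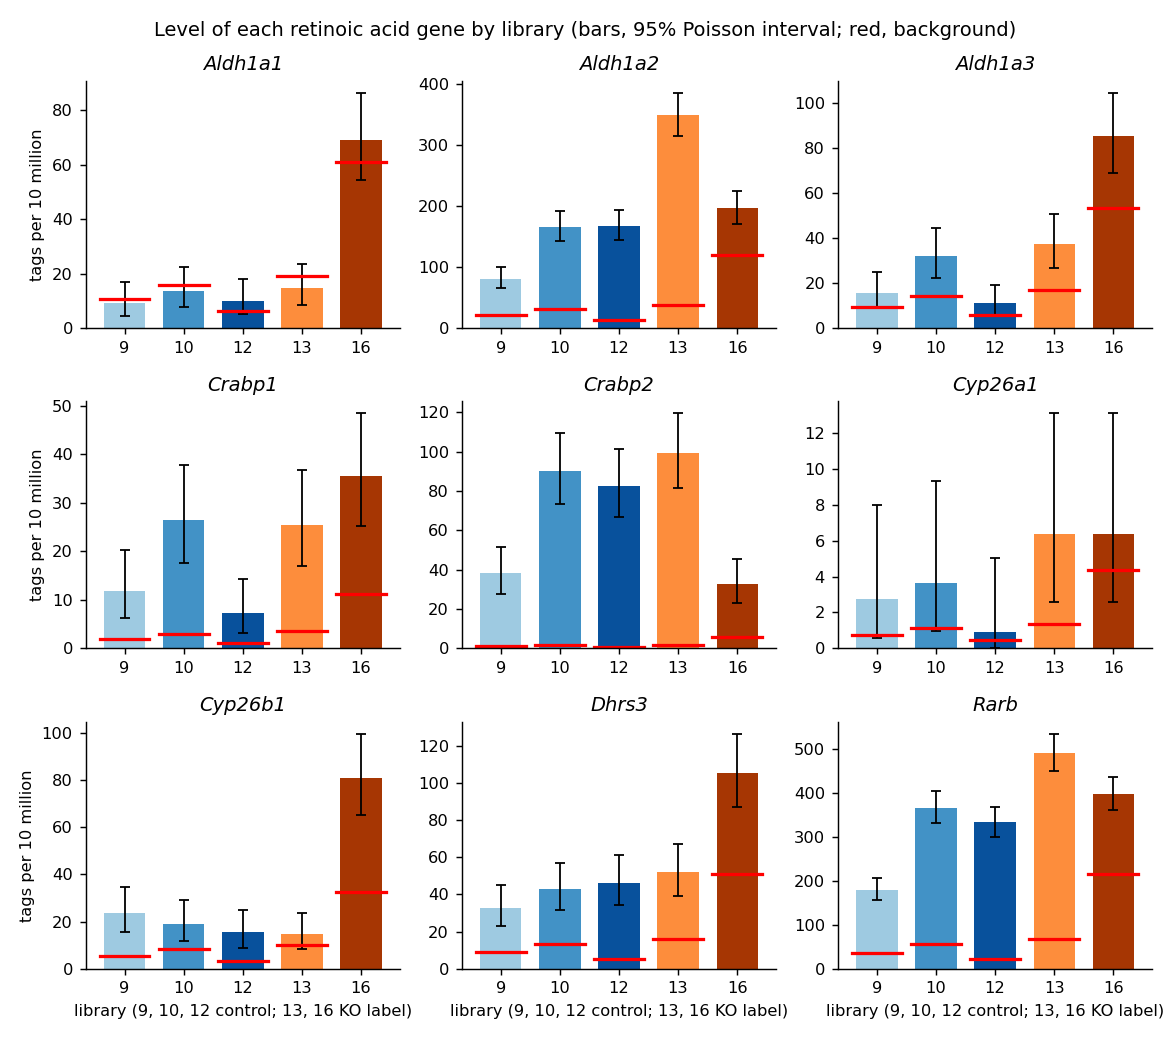
Level of each gene (tags per 10000000) in the 5 libraries. Bars are values, error bars are 95% Poisson intervals of the reads, and red lines are the background expected for a region of that length. In library 16 the background line reaches most of the Aldh1a1 bar, and Crabp2 is lowest there.

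Of the 3 enzymes that make retinoic acid, Aldh1a2 was highest in library 13 and Aldh1a3 in library 16. Aldh1a1 was not detectable above background. Aldh1a2 (mm9 chromosome 9, 71064396 to 71144050), the main enzyme of the early embryo, was at 80.91, 166.36 and 167.27 in controls 9, 10 and 12. It was at 349.09 in library 13 and 196.36 in library 16. Both lay above every control, library 13 most clearly. Background of the region came to 119.2 in library 16, and with background subtracted the levels were 60.4, 135.1 and 154.8 in the control libraries, with 311.5 for library 13 and 77.2 for library 16. Library 16 then lay within the controls and library 13 still above them. With TMM factors as well, Aldh1a2 was at 93.6, 123.9 and 164.7 in controls, against 206.7 for library 13 and 76.95 for library 16, above and below every control in turn. Its fitted change over both libraries was 0.99 ± 0.54 (SE), or 0.02 relative to the median gene and -0.044 with TMM factors (limma, adjusted p = 0.198 and 0.995). The relative change was 0.60 without library 16 and -0.70 without library 13. With background subtracted, the sums of other retinoid receptors, carriers and cofactors and of pouch markers put the libraries in the same order as Aldh1a2. Those of the other gene lists without members, head mesenchyme among them, did not. The 15 other retinoid receptors, carriers and cofactors measured summed to 1490, 2636 and 2768 in controls, against 3717 for library 13 and 1662 for library 16. The 13 pouch markers summed to 825, 1431 and 1554 in the controls, then 2872 for library 13 and 834 for library 16. As a share of that sum, a measure chosen after the values were seen, Aldh1a2 was at 7.32%, 9.44% and 9.96% in the control libraries, with 10.8% for library 13 and 9.26% for library 16. As a share of the summed head mesenchyme markers it was at 9.18%, 10.7% and 15.6%, with 24.1% for library 13 and 14.3% for library 16, so library 13 stayed above every control. The part of either tissue in the Aldh1a2 level was not tested. In these bulk samples fewer cells of a type and less RNA per cell cannot be told apart.

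Aldh1a3 (mm9 chromosome 7, 73536179 to 73571963), an enzyme known from the eye and nasal region, was at 15.45, 31.82 and 10.91 in controls, against 37.27 for library 13 and 85.45 for library 16. Both KO-labelled libraries were above every control. The background of its region was 5.60 to 14.0 in the controls, then 16.9 for library 13 and 53.5 for library 16. What remained was 6.23, 17.8 and 5.31 in the control libraries, with 20.4 for library 13 and 31.9 for library 16, in the same order. With TMM factors too, library 13 (13.5) fell within the controls (9.66, 16.3 and 5.64) and library 16 stayed above at 31.8. Its relative change was 0.66 (limma, 1.63 ± 0.64 SE before the shift, adjusted p = 0.0935), and 0.23 without library 16. The 9 markers of oral and surface epithelium, a neighbouring tissue, summed with background subtracted to 228, 416 and 353 in controls, against 741 for library 13 and 375 for library 16. Krt15 was at 0 in control 9. The 8 markers of the eye and optic cup, none at 0, summed likewise to 179.7, 274 and 211 in the controls, then 254 for library 13 and 338 for library 16. The part of either tissue in the Aldh1a3 level was not tested.

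Aldh1a1 (mm9 chromosome 19, 20677272 to 20717952), an enzyme known from the dorsal retina, was not detectable above background in any library. It was at 9.09, 13.64 and 10 in the control libraries, with 14.55 for library 13 and 69.09 for library 16. Its region's background was 10.5, 15.95 and 6.37 in controls, against 19.2 for library 13 and 60.9 for library 16. Only control 12 and library 16 exceeded it, by 3.63 and 8.23, and both backgrounds lay inside the 95% Poisson intervals of those values (4.99 to 17.9 and 54.4 to 86.5). The relative change of 0.52 (limma, adjusted p = 0.142) turned to -0.40 without library 16, and it rests on a level that was mostly background in library 16 (88.1%). The close paralog Aldh1a7 was at 9.09, 11.82 and 7.27 in the controls, 15.45 and 68.18, of which background left 17.6 in library 16 and at most 1.98 in any other, and reads of the 2 genes may be split between them.

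Of the binding proteins, Crabp2 differed most between libraries 13 and 16. Crabp2 (mm9 chromosome 3, 87753415 to 87757294), which delivers retinoic acid to its receptors, was at 38.18, 90 and 82.73 in the controls, then 99.09 for library 13 and 32.73 for library 16. Library 13 was the highest of the 5 and library 16 the lowest. Its region is short, 3.88 kb, so background was at most 5.80 tags, and the subtracted levels of 37.2, 88.5, 82.1, 97.3 and 26.9 kept that order. With TMM factors too, library 13 (64.5) lay within the controls (57.6, 81.2 and 87.4) and library 16 (26.8) below them. The relative change of Crabp2 was -1.17 (limma, -0.20 ± 0.58 SE before the shift, adjusted p = 0.795), and it was -0.22 without library 16. Control 9, at 38.18, was close to library 16 on the deposited scale, with Poisson intervals of 27.5 to 51.6 and 22.9 to 45.3. The 12 head mesenchyme markers, none at 0 in any library, were also low in library 16, at a summed level above background of 539 against 658 to 1258 in the controls and 1293 in library 13, and their part in the Crabp2 level was not tested.

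Crabp1 (mm9 chromosome 9, 54613415 to 54620916), a carrier known from neural crest and neurons, rested on 8 to 39 reads per library. It was at 11.82, 26.36 and 7.27 in the control libraries, with 25.45 for library 13 and 35.45 for library 16. Library 13 lay within the controls, which spanned 3.63-fold among themselves, and library 16 above them. With background subtracted, library 16 was at 24.2 and control 10 at 23.4. The relative change was 0.15 (limma, adjusted p = 0.244). It was 0.50 with background subtracted and TMM factors (limma, adjusted p = 0.856) and 0.0063 in the quasi-likelihood test (edgeR, adjusted p = 0.972).

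The genes that break down the acid or hold back its supply held places 5 to 7 in the order of control means per kilobase. In controls 9, 10 and 12 taken singly, Cyp26b1 ranked 4, 8 and 6, Dhrs3 6, 5 and 4, and Cyp26a1 7, 6 and 7. Cyp26b1 (mm9 chromosome 6, 84521808 to 84543502), an enzyme that clears retinoic acid from tissues, was at 23.64, 19.09 and 15.45 in controls, against 14.55 for library 13 and 80.91 for library 16. Library 13 lay just below the lowest control and library 16 far above the highest. Background accounted for 32.5 tags in library 16 and 10.2 in library 13. The latter lies inside the 95% Poisson interval of the library 13 value (8.31 to 23.6, 16 reads), so Cyp26b1 was not detectable above background there. The subtracted levels were 18.1, 10.6 and 12.1 in the controls, then 4.32 for library 13 and 48.5 for library 16, on the same sides of the controls. With TMM factors as well they were 28.0, 9.71 and 12.8, then 2.87 and 48.3. The 2 KO-labelled libraries thus enclosed the controls, and the fitted relative change was -0.14, or 0.078 in the quasi-likelihood test (limma adjusted p = 0.358, edgeR adjusted p = 0.944). It was -1.18 without library 16 and 0.74 without library 13, with no call in either fit (adjusted p = 0.674 and 0.063).

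Cyp26a1 (mm9 chromosome 19, 37773098 to 37776026), an enzyme whose gene the acid itself induces, was the most thinly read member. It had 3, 4 and 1 reads in the controls and 7 in each KO-labelled library, or levels of 2.73, 3.64, 0.91, 6.36 and 6.36. The 95% Poisson intervals were 0.562 to 7.97, 0.991 to 9.31 and 0.0230 to 5.07 in the controls and 2.56 to 13.1 in each of the others. These intervals overlapped in every pair of libraries. The relative change was 0.23 (limma, adjusted p = 0.330), but -0.083 without library 13 and -0.078 without control 12. Background of the region was 0.754, 1.15 and 0.459 in the controls, then 1.38 for library 13 and 4.38 for library 16. It lay inside the interval of every library but 13, so only there was Cyp26a1 detectable above background. With background subtracted the levels were 1.98, 2.49 and 0.451 in the control libraries, with 4.98 for library 13 and 1.98 for library 16. Its neighbour Cyp26c1, 5301 bp away, was at 2.73, 3.64 and 1.82 in controls, against 5.45 for library 13 and 13.64 for library 16. With background subtracted it was at 0.751 to 0.971 in the controls, 2.23 and 3.42.

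Dhrs3 (mm9 chromosome 4, 144483530 to 144517548), the reductase that returns retinaldehyde to retinol and is itself induced by retinoic acid, spanned 1.42-fold among the controls on the deposited scale. It was at 32.73, 42.73 and 46.36 in the controls, then 51.82 for library 13 and 105.45 for library 16. Both KO-labelled libraries were above every control. With background subtracted library 13 (35.8) was within the controls (24.0, 29.4 and 41.0), and library 16 (54.6) remained above. The relative change was -0.11, or 0.030 with background subtracted and TMM factors (limma, adjusted p = 0.293 and 0.989).

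Rarb (mm9 chromosome 14, 17263754 to 17407324), the receptor whose own promoter carries the DR5 printed above, ranked 2 or 3 per kilobase in each control. It was at 180, 365.45 and 332.73 in the control libraries, with 490.91 for library 13 and 397.27 for library 16, so both KO-labelled libraries were above every control. The region is 143.6 kb long, and background made up 6.76% to 20.5% of the level in the controls, 13.8% for library 13 and 54.1% for library 16. With background subtracted the levels were 143.0, 309.1 and 310.2 in controls, against 423.2 for library 13 and 182.5 for library 16, which then lay within the controls. With TMM factors as well they were 221.55, 283.6 and 330.0, then 280.9 in library 13 and 181.9 in library 16, so that library 13 was inside the control range and library 16 below it. The relative change was -0.31 (limma, adjusted p = 0.372), and 0.0018 without library 16. The region of Top2b ends 453 bp away, so tags past the end of that gene could be counted to Rarb. Top2b was at 183.64, 339.09 and 348.18 in the controls, then 600 for library 13 and 179.09 for library 16, or with background subtracted 167, 314 and 338, then 569 and 82.2. The Rarb levels rest on 198 to 540 reads per library, and those of Cyp26a1, the other gene with a DR5, on 1 to 7.

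**Figure D3:**
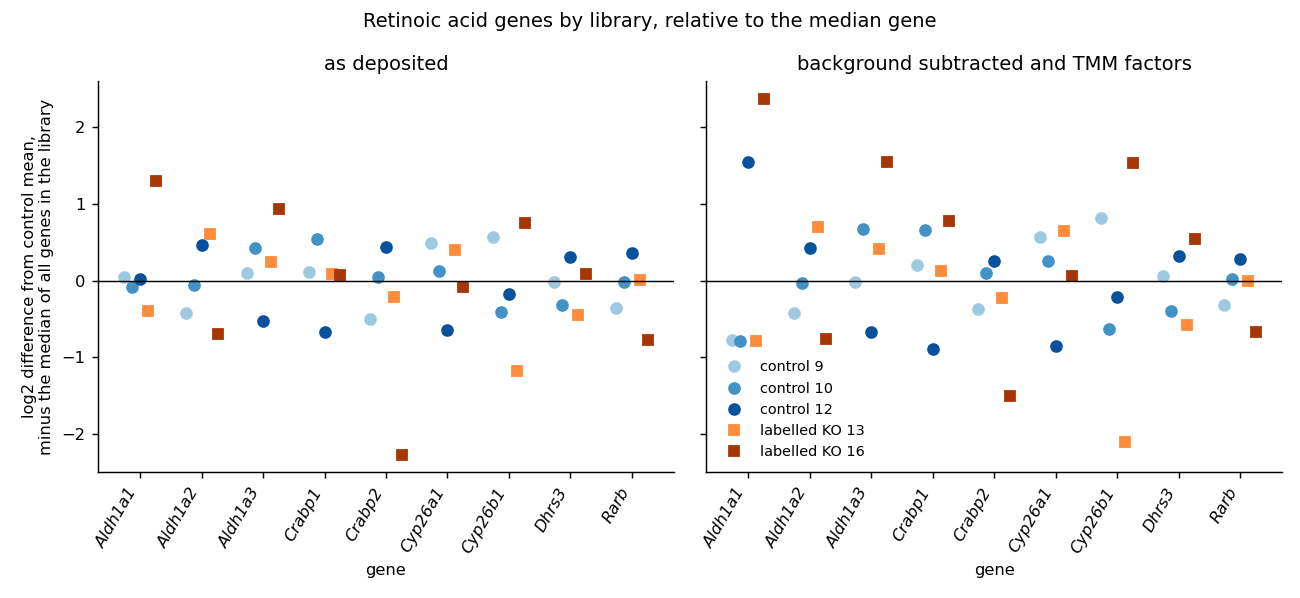
Log2 difference of each library from the control mean, minus the library's median over all tested genes, for the 9 genes on the deposited scale (left) and with background subtracted and TMM factors (right). Circles are controls and squares are the KO-labelled libraries. The squares for Cyp26b1 lie on opposite sides of the circles in both panels, and those for Aldh1a2 do so too. Those for Aldh1a1 do so on the left, and those for Dhrs3 on the right.

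Set against the median gene, libraries 13 and 16 went opposite ways for several members, among them Aldh1a2, Cyp26b1, Aldh1a1 and Dhrs3. On the deposited scale the relative log2 level of Aldh1a2 was 0.60 in library 13 and -0.70 in library 16, with controls from -0.42 to 0.46. That of Cyp26b1 was -1.17 and 0.75, with controls from -0.40 to 0.56. Aldh1a1, which was not detectable above background, was at -0.40 and 1.30, with controls from -0.085 to 0.051. Dhrs3 was at -0.44 and 0.091, with controls from -0.32 to 0.31. Crabp2 was at -0.22 and -2.27, with controls from -0.50 to 0.44. With background subtracted and TMM factors the same values were 0.70 and -0.76 for Aldh1a2, -2.10 and 1.53 for Cyp26b1 and -0.23 and -1.51 for Crabp2. Those of Dhrs3 were -0.58 and 0.54, outside the controls (-0.40 to 0.32) on both sides. The Cyp26b1 value of library 13 rests on a level not detectable above background. How many of all genes went opposite ways was not counted. Of all genes with background subtracted and TMM factors, 42.3% lay above every control in library 16 and 39.4% below. In library 13 those shares were 23.5% and 20.1%, so the opposite placings are not read as a result about the members. On the same scale library 13 had the highest Aldh1a2 and the lowest Cyp26b1 of the 5 libraries. Library 16 had the lowest Aldh1a2 and the highest Cyp26b1. With 1 library on each side, these differences have no replicate check.

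Ratios between members within a library depend on how libraries are scaled only through the pseudocount of 1. They still change when background is subtracted. Summed Aldh1a1 to Aldh1a3 against summed Cyp26a1 and Cyp26b1 gave log2 ratios of 1.96, 3.16 and 3.45 in the control libraries, with 4.197 for library 13 and 2.00 for library 16. Library 13 was above every control and library 16 near the lowest, control 9. The breakdown sum of library 13 held Cyp26b1, not detectable above background there, and Cyp26a1, at 7 reads. The synthesis sum held Aldh1a1, not detectable above background in any library. With background subtracted the ratios were 1.69, 3.45 and 3.61 in controls, then 5.02 for library 13 and 1.20 for library 16, below every control. On the deposited scale the KO-labelled mean exceeded the control mean by 0.24, less than the control SD of 0.79 (exact permutation test, p = 0.9, and 0.9 after Benjamini-Hochberg adjustment over the 5 ratios tested). Crabp2 against Crabp1 was 1.61, 1.73 and 3.34 in controls, against 1.92 for library 13 and -0.11 for library 16, a mean difference of -1.32 (exact permutation test, p = 0.5, adjusted 0.9) that was -0.31 without library 16. Aldh1a3 against Aldh1a2 was -2.32, -2.35 and -3.82 in the controls, with -3.19 for library 13 and -1.19 for library 16 (difference 0.64, exact permutation test, p = 0.6, adjusted 0.9). Aldh1a1 against Aldh1a2 differed by 0.50 and Cyp26a1 against Cyp26b1 by 0.37, each with p = 0.8 in the exact permutation test. For Cyp26a1 against Cyp26b1 library 13, at -1.08, was above every control (-3.11 to -2.11) and library 16, at -3.48, below. With background subtracted they were at 0.17 and -4.05, with controls from -3.17 to -1.73. Cyp26a1 was not detectable above background in the controls and library 16, nor was Cyp26b1 in library 13. This ratio thus rests on an undetectable level in every library. On the deposited scale library 16 fell outside the control range in 4 of the 5 ratios, and library 13 in 3 of the 5. The ratios share members, and no share over all pairs of genes was computed. Among single genes, with background subtracted and TMM factors, 42.3% lay above every control in library 16 and 39.4% below. In library 13 those shares were 23.5% and 20.1%. The counts are thus not read as a result about these genes.

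**Figure D4:**
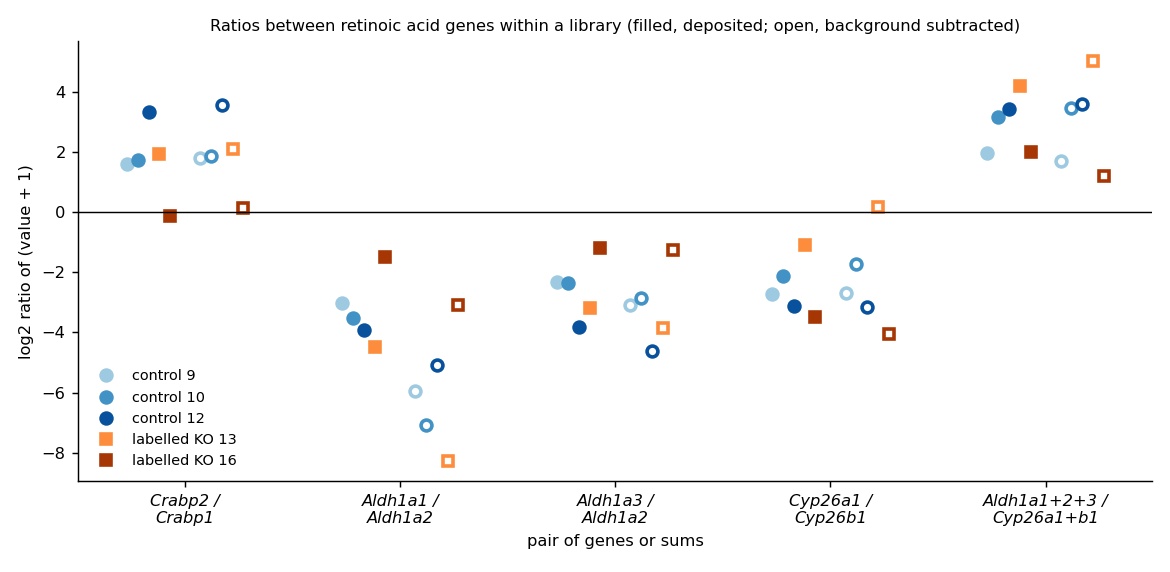
Log2 ratios of (value + 1) between members within each library, for 4 gene pairs and 1 pair of sums. Filled symbols are deposited values and open symbols have background subtracted, with controls as circles and KO-labelled libraries as squares. Library 16 has the lowest Crabp2 to Crabp1 ratio and library 13 the highest ratio of synthesis to breakdown genes. Cyp26b1, a breakdown gene, was not detectable above background in library 13.

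The rest of the pathway was read from lists of genes chosen for their known role. Of 18 measured genes for vitamin A uptake, storage and retinaldehyde formation, 0 passed the limma test, 10 lay above the median gene and 8 below (median relative change 0.11), and with background subtracted and TMM factors 7 above and 10 below (median -0.066). That median was 0.13 without library 16 and 0.41 without library 13. Adh5, an alcohol dehydrogenase, was at 62.73, 112.73 and 87.27 in the controls, above them all at 164.55 for library 13 and below at 55.45 for library 16. Stra6, the retinol uptake receptor, had a relative change of -0.53. Of 15 other receptors, carriers and cofactors, 0 passed, 2 lay above and 13 below (median -0.32), and with background subtracted and TMM factors 5 above and 10 below (median -0.26). That median was -0.038 without library 16 and -0.67 without library 13. The 3 of highest mean value, the cofactor genes Ncoa2, Crebbp and Ncor1, had relative changes of -0.40, -0.52 and -0.59.

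Genes known to respond to retinoic acid in embryos did not pass the test either. Of 18 measured, 0 were called, 12 lay above the median gene and 6 below (median 0.18). With background subtracted and TMM factors 16 could be tested, 11 above and 5 below (median 0.30). That median was 0.016 in the fit without library 16 and 0.50 in the fit without library 13. Meis2, a homeodomain factor, was at 170, 301.82 and 254.55 in the control libraries, with 368.18 for library 13 and 590.91 for library 16, a relative change of 0.013. After background subtraction and TMM scaling Meis2 stood at 182, 204 and 237 for the controls, lowest in library 13 (181) and highest in library 16 (286). Meis1 had a relative change of 0.22 and Tshz1 one of -0.06. No member was among the 1140 genes of the authors' deposited table of changed genes, which held 5.1% of all symbols measured. Of the 51 other pathway genes measured, the authors' deposited table held 3 (5.88%), a share close to that of all symbols, with log2 fold changes of 1.66 for Tgm2 (p = 0.00154), 1.09 for Ncoa1 (p = 0.00544) and -0.37 for Ncor1 (p = 0.00047). Whether these p-values were adjusted is not stated in that table.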

How the data were processed

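RNA was depleted of ribosomal RNA before strand-specific library construction and Illumina sequencing, per the labels' protocols. Bowtie2, HOMER, edgeR and build mm9 are listed in the submitters' processing notes, without roles or versions. Per the file headers, the deposited table gives a normalized signal, in tags for every 10000000 of the library. All 21022 regions are listed on the plus strand, so antisense reads cannot be told apart, and no other region overlapped a member's. The authors' deposited table of changed genes gives a log2 fold change, a linear fold as a ratio, a p-value, and a value for each genotype that is treated as a score since its unit is not stated.

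The longest region per symbol was kept. Values were whole multiples of the worth of 1 read, for 11000000 total tags (100.00% within 0.01 reads). The main test was limma 3.58.1 in R 4.3.3, with its trend option, on log2(value + 1) of genes with a mean of at least 1, Benjamini-Hochberg adjusted at 0.05. Fold changes on this scale understate changes of low genes. Background came from 392 autosomal olfactory and vomeronasal receptor genes, as tags per kilobase times region length, and subtracted values were not let below 0. Alternatives used edgeR 4.0.16 (TMM, quasi-likelihood test) and DESeq2 1.42.0 on recovered reads. Without 1 KO-labelled library, the other is assumed to vary like the controls. Scripts were tested on simulated data. Poisson intervals cover counting error only. The members and lists were chosen with earlier results of these data known. Named by rule were all members, Itgb1, the 3 genes of highest mean value in each pathway list, and the 3 genes most like each of the 2 members of highest mean value. A gene that this rule names in the list for vitamin A uptake is not reported here. Other genes were named after their values were seen.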

Additional observations from a re-analysis of the deposited data

How the results depend on the processing

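No member had an adjusted p under 0.05 in any alternative run. Rarb was the only member with any adjusted p from DESeq2 (0.719). Over all genes, the calls changed from 0 to 25 with DESeq2 and to 2855 with background subtracted and TMM factors without library 13, an alternative added after the data were seen. Leaving out each library in turn on the deposited scale gave 0 calls each time. Over members and alternatives the relative log2 change kept its sign 146 times and turned 23 times. Aldh1a2 turned to -0.044 with TMM factors, -0.044 with size factors, -0.013 at a pseudocount of 0.5 and -0.76 with background subtracted and TMM factors without library 13. Dhrs3 turned to 0.072 with background subtracted, 0.030 with TMM factors as well, 0.54 without library 13 also, and 0.028 at a pseudocount of 5. At that pseudocount Cyp26a1 turned to -0.15 and the ratio of Cyp26a1 to Cyp26b1 to -0.13. Cyp26b1 turned to 0.078 with the quasi-likelihood test, 0.083 with DESeq2 and 1.52 with background subtracted and TMM factors without library 13. The cause was not tested. Leaving out 1 library at a time, the relative change ran from -0.40 to 1.30 for Aldh1a1, -0.70 to 0.60 for Aldh1a2, -0.17 to 0.43 for Crabp1, -0.083 to 0.48 for Cyp26a1, -1.18 to 0.74 for Cyp26b1, -0.45 to 0.089 for Dhrs3 and -0.78 to 0.0018 for Rarb. Aldh1a3 (0.23 to 0.94) and Crabp2 (-2.27 to -0.22) kept their signs. The differences in log2 ratio ran from -2.34 to -0.31 for Crabp2 to Crabp1, -1.002 to 1.997 for Aldh1a1 to Aldh1a2, -0.36 to 1.64 for Aldh1a3 to Aldh1a2, -0.83 to 1.57 for Cyp26a1 to Cyp26b1 and -0.86 to 1.34 for the summed synthesis to breakdown genes. Subtracting background lowered the control level per kilobase by more than its SD for Aldh1a1 (to 0.0297), Cyp26b1 (to 0.625) and Dhrs3 (to 0.925). At a mean of at least 5 Cyp26a1 was not tested, nor was Aldh1a1 with background subtracted and TMM factors without library 16. The alternative with exon lengths was not run, since the gene tables used are of another build. No paired analysis was possible because the groups share no replicate numbers.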

Other observations

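Of 9814 genes with a mean of at least 20 after background subtraction, those most like Rarb over the 5 libraries on the log2 scale were Ddx42 (Pearson r = 0.99992), Srek1ip1 (0.99972) and the Mir1902 region (0.99972). Those most like Aldh1a2 were Mdc1 (0.99962), Esrp1 (0.99961) and Utp14b (0.99959). With only 5 libraries such values are common: 222 genes had r over 0.99 with Rarb and 164 with Aldh1a2. Esrp1, an epithelial splicing regulator, was at 77.9, 175.2 and 196.1 in controls 9, 10 and 12, 379.1 in library 13 and 97.5 in library 16 after subtraction.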
